A study of Mus musculus with 4 samples.

Results

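Theca cells form the outer wall of the ovarian follicle, and the Cyp17a1-expressing ones described here make its androgens. They were taken from 4 single-cell libraries of mouse ovary by a rule on measured counts. A barcode was kept if it held at least 500 genes and over 1000 UMIs (unique molecular identifiers, each marking 1 captured RNA molecule), with under 10% of them mitochondrial. Of these, a theca cell had at least 3 UMIs of Cyp17a1 and a UMI of at least 2 of 8 accompanying genes, namely Gsta2, Bpifb4, Kcnip1, Sct, Stk32a, Tulp2, Stc1 and Plin1. Inhba and Amh together, which mark granulosa cells (GCs), had to stay under 10 per 10000 UMIs, and fewer than 2 of the cycling genes Top2a, Mki67, Ube2c and Prc1 were allowed. The rule found 1057 theca cells among 47782 cells past the filter, out of 57109 barcodes.

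The study asked what the loss of Fosl2, a subunit of the AP-1 transcription factor, does to the ovary. The 2 genotypes compared had 2 libraries each, from 8-week-old females of the same litter. They were Fosl2flox/flox mice (Fosl2F/F, titled Ctrl) and Fosl2flox/flox mice that also carry Cyp19a1-Cre (Fosl2cKO). Both carry LoxP sites around exons 2 to 4 of Fosl2, and Cre recombinase under the promoter of Cyp19a1, the aromatase gene of GCs, is present only in the second genotype. Theca cells are thus not the cells that this Cre is meant to act in. The study's text gives the size of a group, but neither it nor the labels tie each library to an animal of its own, so p-values measure the spread between libraries.

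Androgen synthesis in the theca starts from cholesterol, which the cell takes up from lipoproteins or builds itself. Luteinizing hormone acts through its receptor Lhcgr and cyclic AMP, StAR (the product of Star) carries cholesterol into mitochondria, Cyp11a1 cleaves its side chain with electrons passed on by Fdxr and Fdx1, and Hsd3b1 and Cyp17a1 complete the path to androgens. GCs then convert these androgens into estrogens. Theca cells are recruited from the stroma around growing follicles, and Hedgehog ligands from GCs are among the signals known to act on them.

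Fosl2, the targeted gene, was counted first. In GCs, chosen by their own markers, its level was 176 and 173 CPM (UMIs per 1000000 UMIs of a cell class in a library) in Fosl2F/F 1 and 2 against 197 CPM in Fosl2cKO 1 and 105 CPM in Fosl2cKO 2. Fosl2cKO 1 thus did not lie below the controls. The counts do not separate exons, and the labels could not be checked by this gene alone. Plb1 lies 74865 bases from Fosl2. In GCs it had 0.0626 and 0.0541 CPM in Fosl2F/F 1 and 2 and 959 and 333 CPM in Fosl2cKO 1 and 2. Plb1 also had the largest fold between the genotypes in theca cells, so it is no separate check of the labels. Its rise was not limited to GCs, with 0.356 and 0.287 against 61.5 and 61.2 CPM in stromal fibroblasts. Plb1 had 0 and 0.659 against 114 and 118 CPM in macrophages, and 0 and 0.147 against 37.5 and 84.0 CPM in endothelial cells. The part of RNA from other cells in these levels was not tested. Theca cells of Fosl2F/F 1 and 2 held 142 and 272 CPM of Fosl2, and those labelled Fosl2cKO held 361 and 245 CPM. The log2 fold change was 0.48 with a standard error of 0.36, the error given after ± from here on, and did not pass the quasi-likelihood test of edgeR (adjusted p = 1.0).

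One library stood apart in these cells. Fosl2cKO 1 held 19 theca cells, against 236 in Fosl2F/F 1, 506 in Fosl2F/F 2 and 296 in Fosl2cKO 2. The shares of all cells were 2.69% (exact 95% binomial interval 2.36 to 3.05), 2.08% (1.90 to 2.27), 0.265% (0.16 to 0.413) and 3.94% (3.51 to 4.41) in the order Fosl2F/F 1 and 2 and Fosl2cKO 1 and 2. The intervals cover counting error only. The lowest and the highest shares were both those of libraries labelled Fosl2cKO, and the means of 2.38% ± 0.43 and 2.10% ± 2.60 (SD, n = 2) could not be told apart (exact two-sided permutation test, p = 1.0, where 2 libraries against 2 allow no p under 0.333). Without Fosl2cKO 1 the log2 ratio of the shares turned from -0.18 to 0.73. Its sign also turned without Fosl2F/F 1 (0.016) and where at least 3 accompanying genes were required (0.014). Among theca cells and the Enpep/Asb4 and Abcb1b/Hao2 cells described later, the shares were 29.8%, 15.3%, 1.56% and 26.1% in the same order. There Fosl2F/F 1 was highest, and the log2 ratio was -0.70.

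Depth entered the rule, since it counts UMIs. Theca cells held medians of 16139.5, 6940.5, 23287 and 15922.5 UMIs in the same order, and 4476421, 4702505, 537971 and 5739113 UMIs in all. When every cell was thinned to 2000 UMIs and the rule applied again, the shares were 1.10%, 0.972%, 0% and 1.40%, where 0 of 6865 cells allows up to 0.0537% (exact interval). Thinning left out 6.69%, 18.8%, 4.32% and 4.17% of the cells as too shallow. At 4000 UMIs the shares were 2.26%, 2.43%, 0.0476% and 3.1%, with 16.4%, 50.4%, 12.1% and 12.0% of the cells left out. Fosl2cKO 1 was lowest and Fosl2cKO 2 highest at both depths, whereas the order of the Fosl2F/F libraries turned between them. Libraries shared 15 to 81 cell barcodes in pairs, and none of these was a theca cell in both libraries.

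Cyp17a1 itself, which lies on the minus strand of chromosome 19 from 46667165 to 46673172 (GRCm38), chose the cells, so its levels are a description. They were 4460 and 2317 CPM in the theca cells of Fosl2F/F 1 and 2 and 208 and 2143 CPM in those of Fosl2cKO 1 and 2. A median theca cell held 52.5, 17, 5 and 24 Cyp17a1 UMIs, and the richest one 594, 138, 16 and 284. Theca cells of Fosl2cKO 1 thus passed the rule near its lower limit, whereas those of the other libraries lay mostly far above it. Theca cells carried 70.1%, 65.3% and 70.5% of all Cyp17a1 UMIs of Fosl2F/F 1, Fosl2F/F 2 and Fosl2cKO 2, but 16.1% in Fosl2cKO 1, where the whole library had 5.70 CPM against 115 to 240 CPM elsewhere. After thinning to 2000 UMIs, Cyp17a1 was seen in 90.6%, 92.5%, 36.8% and 85.1% of theca cells (100% unthinned by the rule) against 3.03%, 2.26%, 0% and 1.2% of macrophages, a cell type that should lack it (9.60%, 4.72%, 0.565% and 5.62% unthinned). The median depth of these macrophages was 7993.5, 3462.5, 9977.5 and 8851 UMIs.

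Cells were also chosen by the accompanying genes alone. Taken by at least 4 of the 8 genes and no condition on Cyp17a1, a choice made after the data had been seen, 214, 237, 123 and 278 cells were found in the same library order. Of these, 77.6%, 83.1%, 13.8% and 74.8% had 3 or more Cyp17a1 UMIs, and their Cyp17a1 level was 4273, 2281, 34.3 and 1777 CPM. Of the 123 cells there, 56 belonged to the class with both Abcb1b and Hao2 described later, against 5, 9 and 13 in the other libraries, and 8 to the Enpep/Asb4 class, against 15, 6 and 28.

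Since both classes require under 3 Cyp17a1 UMIs, the cells with Abcb1b and Hao2 were left out whatever their Cyp17a1. This left 184, 184, 56 and 218 cells, of which 77.2%, 83.2%, 17.9% and 74.8% had 3 or more Cyp17a1 UMIs, and Cyp17a1 had 4277, 2343, 62.6 and 1660 CPM in them. Cyp17a1 thus remained lowest in Fosl2cKO 1. Cyp11a1 had 6488, 3306, 3932 and 3009 CPM in all the cells chosen and 5955, 2566, 2511 and 2235 CPM in those left. Hsd3b1 had 3146, 2166, 2800 and 2594 CPM, and 2965, 1820, 2078 and 2324 CPM in those left. Lhcgr, with 1017, 473, 181 and 447 CPM (967, 482, 196 and 407 CPM in those left), was lowest in Fosl2cKO 1 either way. Stc1, a secreted glycoprotein and 1 of the 8 accompanying genes, had 96.5, 179, 454 and 229 CPM (104, 179.8, 613 and 253 CPM in those left), highest there. Stc1 helped to choose these cells, and its part in which cells of Fosl2cKO 1 were admitted was not tested. All the cells chosen held medians of 16741.5, 8929, 21187 and 17920 UMIs, so those of Fosl2cKO 1 were the deepest. With 1 library apart from the rest, the levels are given without a test.

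**Figure D1:**
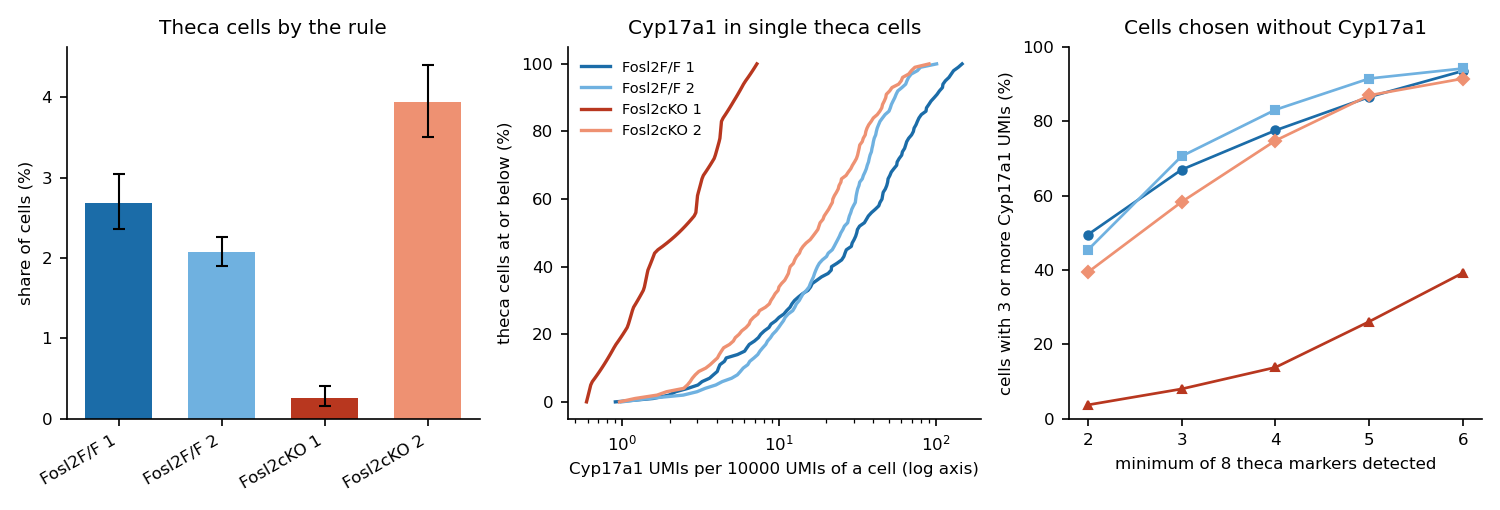
Left, theca cells as a percent of the cells of each library, with exact 95% binomial intervals. Middle, the cumulative percent of theca cells against Cyp17a1 UMIs per 10000 UMIs of the cell (log axis), where medians were 31.3 and 24.8 in Fosl2F/F 1 and 2 and 2.28 and 17.0 in Fosl2cKO 1 and 2. Right, cells chosen by a minimum number of the 8 accompanying genes without Cyp17a1, and the percent of them with 3 or more Cyp17a1 UMIs, which in Fosl2cKO 1 stayed below the other 3 libraries at every minimum. At a minimum of 4, 56 of the 123 cells of Fosl2cKO 1 were Abcb1b/Hao2 cells.

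Cells just inside and just outside the rule were counted as well. The 58 theca cells with exactly 3 Cyp17a1 UMIs had 3322 CPM of Cyp11a1 and 2452 CPM of Hsd3b1, and the 97 cells left out with 2 UMIs had 4632 and 2847 CPM. The 234 theca cells with 2 of the accompanying genes had 5030 CPM of Cyp11a1, and the 203 left out with 1 of them had 4135 CPM, of which 185 came from Fosl2F/F 2, the library with the shallowest cells. A further 176 cells were left out for 2 or more cycling genes and 26 for Inhba and Amh.

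The label was checked against theca markers that the rule did not use. Cyp11a1 (plus strand of chromosome 9, 58006411 to 58027023) had 7449, 3527, 4478 and 3779 CPM, Hsd3b1 (minus strand of chromosome 3, 98852194 to 98859794) had 3476, 2256, 2561 and 2987 CPM, and Star (plus strand of chromosome 8, 25806555 to 25815982) had 104, 428, 292 and 154 CPM, in the order Fosl2F/F 1 and 2 and Fosl2cKO 1 and 2. Lhcgr had 1061, 442, 459 and 486 CPM and Nr5a1, the nuclear receptor that drives steroidogenic genes, had 188, 124, 165 and 173 CPM. All 8 markers were present in every library, Fosl2cKO 1 included. Their sum of 10208 to 15646 CPM does not set theca cells apart from the Abcb1b/Hao2 cells described later, where it was 13543 to 16756 CPM, but lay above the 552 to 1279 CPM of Enpep/Asb4 cells. Insl3, the insulin-like hormone of theca cells, was the weakest with 4.91, 9.57, 13.0 and 7.84 CPM from 22, 45, 7 and 45 UMIs. It lies inside Jak3 on the same strand (chromosome 8, 71689214 to 71690575), so its count is uncertain. Thinned to 2000 UMIs, Cyp11a1 was seen in 98.7%, 92.3%, 94.7% and 91.9% of theca cells (100%, 99.6%, 100% and 99.7% unthinned), against 18.7%, 48.3%, 18.4% and 14.9% of macrophages (51.0%, 67.5%, 58.2% and 44.6% unthinned). The share of macrophages with Cyp11a1 was highest in Fosl2F/F 2.

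Markers of other cells were summed over each list. Pericyte and smooth muscle markers came to 33.5 to 98.9 CPM, endothelial markers to 29.7 to 183 CPM and luteal markers to 53.9 to 268 CPM over the 4 libraries. GC markers came to 1403 to 2603 CPM, against 879 to 1162 CPM in Enpep/Asb4 cells and 1078 to 1654 CPM in Abcb1b/Hao2 cells, and stromal fibroblast markers to 1454 to 1913 CPM. Immune markers had 29.7, 62.9 and 57.2 CPM in 3 libraries and 255 CPM in Fosl2cKO 1, where single cells carried most of them. Of the 19 cells there, 1 held 46 of 53 UMIs of Cd74 and 1 held 18 of 21 UMIs of C1qa. A doublet score marked 11, 86, 0 and 14 theca cells, 10.5% of all, against 13.0% of all cells.

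Theca cells were first set against the cells with both Enpep, an aminopeptidase of the cell surface, and Asb4, a subunit of a ubiquitin ligase. These Enpep/Asb4 cells (286, 735, 306 and 431 in the 4 libraries) had under 3 Cyp17a1 UMIs. Genes used by either rule were left out, and both classes of a library were compared within it. Of 13580 genes tested, 943 (6.94%) were higher and 1504 (11.1%) lower in theca cells where a call needed an adjusted p below 0.05 and a log2 difference beyond 1 in either direction. Since rules on genes chose both classes, genes that go with those of the rules had to differ, and the test shows how well the 4 libraries agreed.

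Steroidogenic genes set the classes apart. Cyp11a1 had 115, 359, 138 and 92.5 CPM in Enpep/Asb4 cells, a log2 fold change of 4.95 ± 0.41 (adjusted p = 2.7e-05). Fdx1 and Fdxr, its electron donors, differed by 3.85 ± 0.20 and 2.57 ± 0.12, and Hsd3b1 by 4.03 ± 0.26. Srd5a1, which reduces testosterone to dihydrotestosterone, had 61.4, 79.7, 92.9 and 77.0 CPM in theca cells and 4.88, 6.11, 6.05 and 5.56 CPM in Enpep/Asb4 cells (3.79 ± 0.12, adjusted p = 1.5e-06). Star was higher by 2.26 ± 0.19. In no library did the classes overlap for these genes. Of 21 tested genes of steroidogenesis, 9 were higher and none lower, with a median of 0.61 against 0.00 over all genes. Among those not called were Cyb5a, the cytochrome that helps Cyp17a1 cleave its product, with 0.10 ± 0.09, and Por, its reductase, with 0.65 ± 0.19.

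Genes of cholesterol supply were higher nearly throughout. Of 29 tested genes of uptake, storage and synthesis, 24 were higher in theca cells and none lower, with a median of 1.80, and 23 were higher without Fosl2cKO 1 or without doublets. Msmo1, a sterol oxidase, had 256, 170, 351 and 235 CPM in theca cells and 25.7, 49.5, 33.6 and 30.6 CPM in Enpep/Asb4 cells (2.84 ± 0.24, adjusted p = 3.0e-05). The cyclase Lss (2.77 ± 0.28), Fdps (2.72 ± 0.27) and Idi1 (2.52 ± 0.21) followed it. Hmgcs1, at the head of the pathway, had 388, 324, 613 and 347 CPM against 71.0, 133, 91.8 and 73.5 CPM (2.19 ± 0.21), and Srebf2, the factor that switches the pathway on, had 82.9, 94.2, 121 and 96.2 CPM against 29.8, 50.7, 52.3 and 40.4 CPM (1.22 ± 0.12). Scarb1, the receptor for high density lipoproteins, was higher too, by 1.72 ± 0.12. Apoe, the apolipoprotein, had 504, 306, 645 and 374 CPM against 534, 446, 572 and 290 CPM, a difference of -0.00 ± 0.14.

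Srebf2 protein binds sterol regulatory elements, so the promoters of these genes were searched for 1 form of that element, TCACNCCA, on both strands from 250 bases before to 50 bases after the start of each gene in RefSeq (GRCm38.p6). Of the 29 genes, 20 had an entry, and 4 of these (20%) held the motif, against 4.97% of 27025 genes. The matches are shown because they are the 4 found. Of these genes, Hmgcs1, Msmo1 and Srebf2 were higher in theca cells and Apoe was not called, a share no larger than the 24 of 29 in the whole list. Each is given 5′ to 3′ on the strand of the motif, with the motif in capitals. They lie 137, 177, 162 and 213 bases before the start in the order listed, at chr13:119690203-119690232 (plus strand), chr8:64733737-64733766 (minus), chr15:82147096-82147125 (plus) and chr7:19699383-19699412 (minus).
Hmgcs1: acgtcaccgtcTCACCCCActtcccaggtc
Msmo1: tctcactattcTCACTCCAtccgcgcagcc
Srebf2: atgacgcaccaTCACCCCAtgagccgcttc
Apoe: aacaacgatctTCACCCCAgaagctgagcc
A match describes the letters of the window and does not show binding. The half-site of Nr5a1 (AAGGTCA) was in 2 of the 20 promoters (10.0%) and in 1 of 18 steroidogenic ones (5.56%), against 5.38% of all. Sequences for Cyp17a1 and Star are not given.

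Receptors and signals of the theca split in both directions. Lhcgr was 3.18 ± 0.29 higher, with 58.3, 92.2, 35.2 and 78.1 CPM in Enpep/Asb4 cells, and Prkar2b, a regulatory subunit of protein kinase A, was 2.61 ± 0.20 higher. Pde3a, a phosphodiesterase that degrades cyclic AMP, was lower, with 0.447, 17.4, 0 and 4.70 CPM against 141, 98.3, 78.8 and 84.4 CPM (-3.97 ± 0.53). In this list 5 of 23 genes were higher and 4 lower. Kit, the receptor of the ligand that GCs make, had 58.1, 60.4, 48.3 and 67.8 CPM in theca cells and 4.61, 8.42, 4.17 and 7.96 CPM in Enpep/Asb4 cells (3.22 ± 0.16, adjusted p = 3.5e-06), and the prolactin receptor Prlr was 2.28 ± 0.22 higher. Insl3 gave 119 UMIs in theca cells and 2 in Enpep/Asb4 cells, a ratio per UMI of 76.6 (exact interval 20.7 to 640, for counting error only and with the libraries pooled), and the overlap with Jak3 leaves this count uncertain too. Among those lower were the growth factors Hgf (-5.38 ± 0.38) and Igf1 (-2.20 ± 0.24) and the receptor Tgfbr2 (-2.77 ± 0.17). Of 27 secreted factors and receptors, 5 were higher and 12 lower (median -0.73).

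Transcription factors and Hedgehog genes differed as well. Cebpa was 3.61 ± 0.24 higher, Nr5a1 2.29 ± 0.15 and Gata4, which acts with Nr5a1 on steroidogenic promoters, 1.12 ± 0.09. Tcf21, a factor of ovarian stroma, had a log2 fold change of -3.73 ± 0.25 and Cebpd one of -1.73 ± 0.13. In all 3 of 23 factors were higher and 7 lower. Of 13 Hedgehog genes, 5 were lower and 1 higher (median -0.55). Gli1, a target and effector of the pathway, had 3.57, 9.14, 0 and 11.7 CPM in theca cells and 31.7, 24.4, 35.7 and 31.1 CPM in Enpep/Asb4 cells (-1.95 ± 0.34), Gli2 differed by -2.38 ± 0.23, and the receptor Ptch1 had 110, 116, 68.8 and 172 CPM against 278, 276, 360 and 496 CPM (-1.52 ± 0.16). The coreceptor Cdon went the other way with 2.24 ± 0.21.

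Some retinoid and redox enzymes were higher in theca cells. Aldh1a1, which makes retinoic acid, had 2527, 1631, 3599 and 2196 CPM against 202, 167, 192 and 256 CPM (3.58 ± 0.17, adjusted p = 3.1e-06), Adh1 differed by 4.92 ± 0.36 and Cyp26b1, which degrades retinoic acid, by 2.93 ± 0.30. Of 11 retinoid genes 4 were higher and 1 lower. The glutathione transferase Gsta4 (3.27 ± 0.14) and the quinone reductase Nqo1 (2.73 ± 0.38) led 5 of 19 redox genes that were higher, with none lower. Of 14 lipid droplet genes 1 was lower, of 10 AP-1 genes 1 was lower, of 16 immediate early and heat shock genes 1 was lower, and of 19 respiratory chain genes 2 were higher. These counts of calls lie near the shares over all genes (6.94% higher, 11.1% lower). By sign, 18 of the 19 respiratory chain genes were positive, with a median of 0.56 against 0.00 over all genes. Positive too were 7 of 14 lipid droplet genes (median -0.03), 6 of 16 immediate early and heat shock genes (-0.31) and 1 of 10 AP-1 genes (-0.47).

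The largest differences outside these lists were those of Oca2, a melanosomal transporter (6.71 ± 0.24), Mgat4c (6.15 ± 0.35), the protease inhibitors Serpina5 (5.42 ± 0.30) and Cst8 (5.0 ± 0.30), Nckap5 (5.22 ± 0.31), Slc45a3 (4.83 ± 0.20), Sez6l2 (4.65 ± 0.35) and Dock8 (4.27 ± 0.24). Oca2 had 96.7, 43.4, 85.5 and 64.3 CPM in theca cells and under 1 CPM in the Enpep/Asb4 cells of every library. On the other side stood Ramp3, a partner of the adrenomedullin receptor (-5.004 ± 0.33), the Notch target Heyl (-4.96 ± 0.25), Itga8 (-4.76 ± 0.22), Col15a1 (-4.73 ± 0.22), Pdgfrb (-4.59 ± 0.25), Tagln (-4.54 ± 0.28), Prkg1 (-4.51 ± 0.38), Fblim1 (-4.45 ± 0.22), Fat3 (-4.36 ± 0.25) and Acta2 (-4.30 ± 0.36). Acta2, smooth muscle actin, had 23.2, 54.0, 11.2 and 56.6 CPM in theca cells against 898, 638, 1036 and 701 CPM. Several of these are contractile or mural cell genes, and all 6 pericyte markers were lower in theca cells, with a summed 1134 to 1813 CPM in Enpep/Asb4 cells. Stromal fibroblast markers were lower for 5 of 6 genes (4552 to 6690 CPM summed in Enpep/Asb4 cells), and endothelial markers for 6 of 6 (5 without doublets). Of 10 GC markers, however, 3 were higher and 1 lower, and of 6 luteal markers 1 was higher and 0 lower. Immune markers were lower for 1 of 7 genes and surface epithelial ones for 1 of 5. The part of pericytes among Enpep/Asb4 cells in these differences was not tested.

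Theca cells were next set against a second class with both Abcb1b, a drug efflux pump, and Hao2, a peroxisomal oxidase, and again under 3 Cyp17a1 UMIs (269, 2072, 890 and 406 cells). Of 13848 genes tested, 785 (5.67%) were higher and 880 (6.35%) lower in theca cells, at the same thresholds. Here few genes of the path from cholesterol were called. Cyp11a1 had 7811, 6775, 5171 and 6519 CPM in the Abcb1b/Hao2 cells and a log2 fold change of -0.50 ± 0.19 (adjusted p = 0.090), Hsd3b1 one of -0.39 ± 0.17 and Lhcgr one of -0.08 ± 0.42, none of them called. Star, by contrast, had 881, 864, 1138 and 919 CPM there against 104, 428, 292 and 154 CPM in theca cells (-2.16 ± 0.30, adjusted p = 0.0016).

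Of 21 steroidogenic genes, none was higher and 4 were lower in theca cells. Beside Star these were Tspo (-1.57 ± 0.15), a protein of the outer mitochondrial membrane, Hsd17b7 (-1.45 ± 0.43) and Akr1c18, which inactivates progesterone in the corpus luteum (-5.53 ± 0.70). Akr1c18 had 573, 102, 5.33 and 0 CPM in the Abcb1b/Hao2 cells, so that its level differed between libraries of this class far more than it did in theca cells (2.90, 7.44, 0 and 0 CPM), and in DESeq2 it missed the threshold (-4.12, adjusted p = 0.058). Of 29 genes of cholesterol supply, 1 was higher and 1 lower (median 0.19 against 0.00 over all genes). The one higher was Abca1, the exporter of cholesterol, with 399, 577, 2117 and 1156 CPM in theca cells against 183, 220, 532 and 424 CPM (1.49 ± 0.15).

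**Figure D2:**
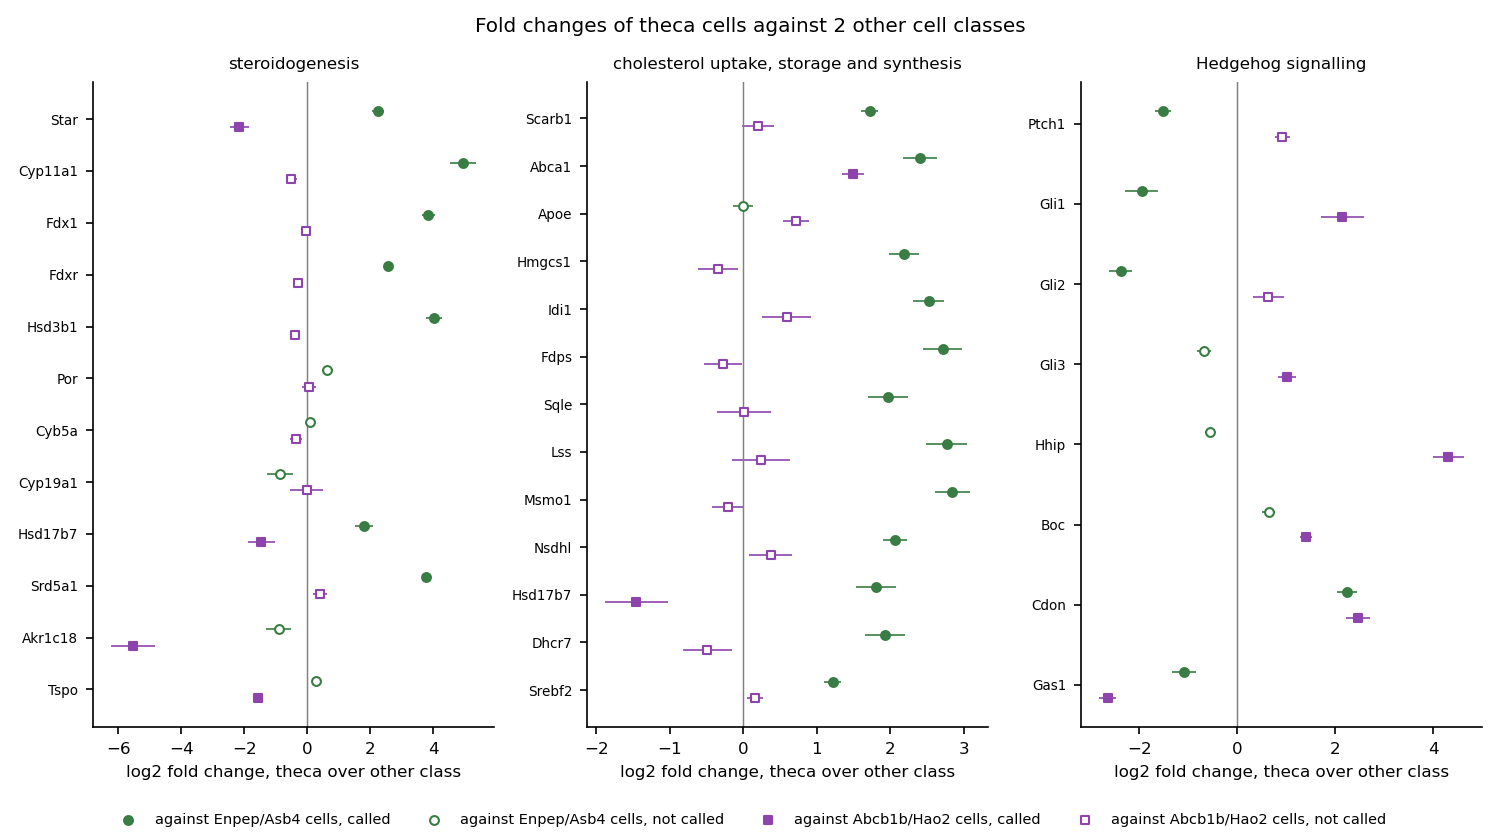
Log2 fold changes of theca cells over Enpep/Asb4 cells (circles) and over Abcb1b/Hao2 cells (squares) with standard errors, for genes of 3 lists that the text names. Filled symbols passed an adjusted p of 0.05 and a log2 fold change of 1 in size. Most of the genes of cholesterol supply shown lie to the right against the first class and near 0 against the second, and Hedgehog genes such as Hhip, Gli1 and Cdon lie to the right against the second.

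Hedgehog genes set theca cells apart from this class, with 6 of 13 higher and 1 lower (median 0.92), or 7 and 1 without Fosl2cKO 1. Hhip, which binds Hedgehog ligands and is induced by them, had 127, 109, 100 and 197 CPM in theca cells and 2.18, 9.45, 7.04 and 7.15 CPM in Abcb1b/Hao2 cells (4.30 ± 0.32, adjusted p = 0.00012). The coreceptors Cdon (2.46 ± 0.25) and Boc (1.41 ± 0.12), and the effectors Gli1 (2.14 ± 0.44) and Gli3 (1.02 ± 0.18) were higher as well, whereas the coreceptor Gas1 was lower (-2.64 ± 0.18). By its fold changes Gli1 thus lay between the other classes, although the theca cells of Fosl2cKO 1 held 0 CPM of it. Hhip, with 152, 190, 149 and 313 CPM in Enpep/Asb4 cells, was not called against these (-0.55 ± 0.11).

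Some transcription factors and genes of cyclic AMP signalling were higher than in Abcb1b/Hao2 cells. Of 23 factors 6 were higher, among them the progesterone receptor Pgr (3.18 ± 0.34), Cebpa (1.80 ± 0.11) and Nr5a1 (1.49 ± 0.11), and 2 were lower, Gata6 (-1.88 ± 0.21) and Nr5a2 (-1.29 ± 0.16). Nr5a1 had 57.6, 44.2, 60.7 and 70.5 CPM in Abcb1b/Hao2 cells, below every library of theca cells. Of 23 genes of Lhcgr and cyclic AMP signalling, 5 were higher and 2 lower (median 0.09). The phosphodiesterase Pde10a was 2.45 ± 0.51 higher, with 155, 1657, 81.8 and 510 CPM in theca cells, so that its level varied widely between libraries, and Prkar2b was 1.52 ± 0.27 higher. Prkar1b, another regulatory subunit of protein kinase A, was lower (-1.20 ± 0.37). Kit had 10.9, 10.6, 15.6 and 18.4 CPM in Abcb1b/Hao2 cells (2.15 ± 0.18) and Insl3 differed by 3.28 ± 0.39. Of 28 secreted factors and receptors 3 were higher and 3 lower (median -0.02), near the shares over all genes of 5.67% and 6.35%. Cyp26b1 was higher (4.47 ± 0.54) and Stra6, a retinol transporter, lower (-2.28 ± 0.44). Of 19 redox genes 3 were higher, Gsta4 (2.19 ± 0.28), Nqo1 (1.51 ± 0.24) and Gstm2 (1.11 ± 0.19), and 3 lower, the extracellular peroxidase Gpx3 (-3.85 ± 0.37), Gpx1 (-1.33 ± 0.11) and Mgst1 (-1.03 ± 0.12). Of 14 lipid droplet genes none was higher, and the lipid droplet proteins Plin5 (-4.93 ± 0.29) and Plin4 (-4.71 ± 0.35) were lower.

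The largest rises beside Hhip were Col25a1 (4.21 ± 0.43), Clca3a1 (3.79 ± 0.40), Rtl4 (3.62 ± 0.22), the amine oxidase Aoc3 (3.44 ± 0.24), Hspa12a (3.24 ± 0.17), the laminin Lama2 (3.06 ± 0.21), the glypican Gpc3 (3.05 ± 0.30), Mt3 (2.95 ± 0.28) and Col1a2 (2.90 ± 0.29). The largest falls with 1 direction in all 4 libraries, beside Plin4, were the matrix protein tenascin (Tnc), Wnt10b (-4.71 ± 0.31), Pik3c2g (-4.56 ± 0.27), Runx2 (-4.47 ± 0.33), the prostaglandin receptor Ptgfr (-4.33 ± 0.39), Cemip (-4.18 ± 0.42), Tmem178 (-4.17 ± 0.38), Mbp (-4.17 ± 0.32) and the galectin Lgals3 (-4.11 ± 0.36). All 6 luteal markers, Runx2 and Ptgfr among them, were lower in theca cells, and their sum was 982 to 5328 CPM in Abcb1b/Hao2 cells. Immune markers were lower for 5 of 7 genes, but for 1 of 7 without doublets. Stromal fibroblast markers were higher for 3 of 6 genes and endothelial ones for 2 of 6.

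**Figure D3:**
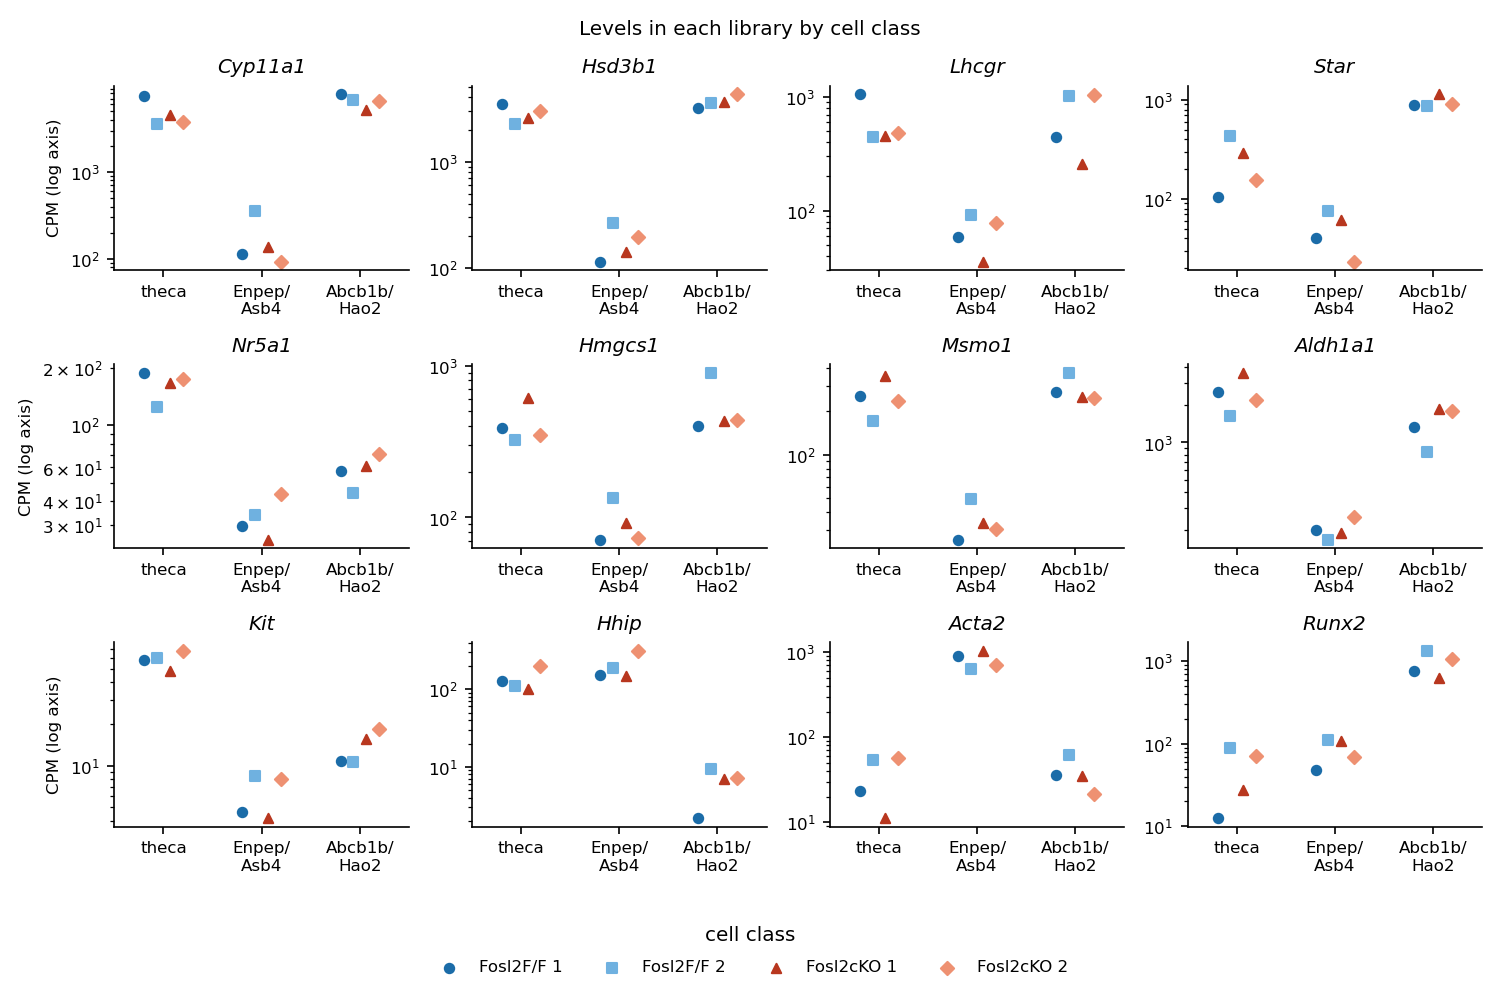
Levels in CPM (log axis) of 12 genes in theca, Enpep/Asb4 and Abcb1b/Hao2 cells, 1 point per library. Cyp11a1 and Hsd3b1 in the theca cells of all 4 libraries lie far above Enpep/Asb4 cells and near Abcb1b/Hao2 cells. Kit and Nr5a1 are highest in theca cells, Acta2 in Enpep/Asb4 cells, and Star and Runx2 in Abcb1b/Hao2 cells.

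Theca cells were then compared among themselves. Each library's theca cells were split at the median of Cyp17a1 per 10000 UMIs within 5 ranges of depth, so that the 522 cells with more Cyp17a1 and the 535 with less had like depths (medians 11765.5 and 11642 UMIs). This is a range within the class and not a division into types. The split did not fall at the same level in every library. In Fosl2cKO 1 the cells with more Cyp17a1 held a median of 3.88 UMIs per 10000 (306 CPM), below the medians of 10.1, 11.1 and 6.94 in the cells with less of Fosl2F/F 1, Fosl2F/F 2 and Fosl2cKO 2 (1761, 1006 and 761 CPM). Without Fosl2cKO 1 the counts given next were 148 and 266. Of 11601 genes tested, 125 (1.08%) were higher and 268 (2.31%) lower in cells with more Cyp17a1, where a call needed an adjusted p below 0.05 and a log2 difference beyond 0.5 in either direction. Since a gene of the rule made the split, genes that go with Cyp17a1 had to differ. The cells with less also held fewer of the accompanying genes (medians of 4, 3, 5.5 and 4 against 5, 4, 6 and 5). The doublet score marked 3.64% of the cells with more Cyp17a1 and 17.2% of those with less (27.8% in Fosl2F/F 2). Without doublets the counts were 91 and 113. The median mitochondrial share was higher in the cells with more Cyp17a1 in all 4 libraries (4.67%, 3.55%, 4.4% and 4.02% against 4.49%, 2.9%, 4.07% and 3.7%). Its part in the differences was not tested.

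Genes of lipid synthesis were among those that rose with Cyp17a1. The fatty acid desaturase Fads2 had 1411, 449, 463 and 666 CPM in the cells with more Cyp17a1 and 666, 174, 365 and 247 CPM in those with less (1.21 ± 0.12, adjusted p = 3.5e-05), and Fads1, which acts beside it, differed by 1.04 ± 0.11. Both were higher in all 4 libraries. Of 29 genes of cholesterol supply, 7 were higher and none lower, 27 had a positive log2 fold change, and the median was 0.40 against 0.00 over all genes, with 12 higher without Fosl2cKO 1 and 9 without doublets. Lss (1.10 ± 0.25), Nsdhl (0.74 ± 0.12), Dhcr7 (0.69 ± 0.16), Idi1 (0.67 ± 0.13), Fdps (0.67 ± 0.13), Sqle (0.64 ± 0.14) and Abca1 (0.55 ± 0.10) were those called. Nsdhl was higher in all 4 libraries (102, 41.9, 82.6 and 54.6 CPM against 68.9, 25.9, 54.1 and 30.9 CPM), whereas Idi1, Fdps and Sqle were not higher in Fosl2cKO 1, where both parts have few cells (9 and 10). Rises with Cyp17a1 were not particular to lipid synthesis. All 8 theca markers that the rule did not use were positive, with 3 called and a median of 0.44. Of 19 respiratory chain genes 18 were positive, with 1 called and a median of 0.19.

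Of 23 genes of Lhcgr and cyclic AMP signalling, 3 were higher and none lower with more Cyp17a1. Of 21 transcription factors, 2 were higher and 4 lower, or 1 and 1 without doublets. Prkar2b had 833, 720, 351 and 1228 CPM against 363, 336, 358 and 527 CPM (1.07 ± 0.13), higher in every library but Fosl2cKO 1, and Pde10a (0.69 ± 0.12) and Mrap (0.51 ± 0.12), an accessory protein of the melanocortin receptor, were also called. Pde10a was likewise not higher in Fosl2cKO 1 (62.0 against 98.0 CPM). Insl3 had 7.33, 14.1, 24.8 and 12.4 CPM against 2.62, 5.34, 3.38 and 3.16 CPM (1.75 ± 0.33). Cebpa (0.64 ± 0.11), Nr5a1 (0.55 ± 0.11) and Fdx1 (0.52 ± 0.07) were higher, Nr5a1 in every library but Fosl2cKO 1 (153 against 176 CPM). The 4 lower factors were Nr5a2 (-1.36 ± 0.24), Gata6 (-1.26 ± 0.25), Wt1 (-1.21 ± 0.27) and the estrogen receptor Esr2 (-1.01 ± 0.26). Cyp11a1 had 0.47 ± 0.07, Lhcgr 0.41 ± 0.08 and Hsd3b1 0.30 ± 0.08, below the fold required, and Star 0.31 ± 0.10 (adjusted p = 0.096). The other large rises were those of the complement component C7 (1.24 ± 0.17), Pld3 (0.94 ± 0.13), Aoc3 (0.82 ± 0.12), AU021092 (0.82 ± 0.12), Tmem132a (0.82 ± 0.13), Ass1 (0.82 ± 0.13), the fatty acid binding protein Fabp3 (0.78 ± 0.10) and the oxytocin receptor Oxtr (0.77 ± 0.14). With over 2000 UMIs and under 5% mitochondrial UMIs required, C7 missed the threshold (1.12, adjusted p = 0.12 in edgeR).

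Cells with less Cyp17a1 had more RNA of the catenin Ctnna2, with 91.5, 343, 84.5 and 305 CPM against 36.2, 99.2, 12.4 and 80.5 CPM (-1.70 ± 0.12, adjusted p = 1.9e-06), and of the potassium channel Kcnd2, with 188, 382, 64.2 and 426 CPM against 48.6, 173, 4.13 and 97.1 CPM (-1.68 ± 0.16). Kctd14 (-1.34 ± 0.12), Ltbp1 (-1.50 ± 0.20), which stores latent TGF-beta, Pid1 (-1.08 ± 0.17), Mctp1 (-1.05 ± 0.22), Gpx3 (-0.96 ± 0.16) and Cd74 (-1.82 ± 0.28) were also higher in them. Cd74, a partner of MHC class II, and Mctp1 were not called without doublets (-1.0 and -0.87). Gpx3 was lost with the stricter cell filter (-1.05, adjusted p = 0.063 in edgeR) and with at least 3 accompanying genes (-0.68, adjusted p = 0.093), and Mctp1 with the stricter filter, with a split that took no account of depth, in DESeq2 and without Fosl2F/F 2. Secreted factors and receptors were higher for 2 and lower for 9 of 25 genes, but for 1 and 3 without doublets. Endothelial markers were lower for 4 of 6, surface epithelial ones for 3 of 4 and immune ones for 2 of 6, and none of these was called without doublets. In the cells with less Cyp17a1, endothelial markers summed to 30.4 to 318 CPM and immune markers to 33.1 to 436 CPM, against 28.9 to 50.9 CPM and 23.2 to 39.2 CPM in the cells with more. Without Fosl2F/F 2 the counts were 62 higher and 91 lower, and Nr5a2 missed the threshold (-0.76, adjusted p = 0.061).

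**Figure D4:**
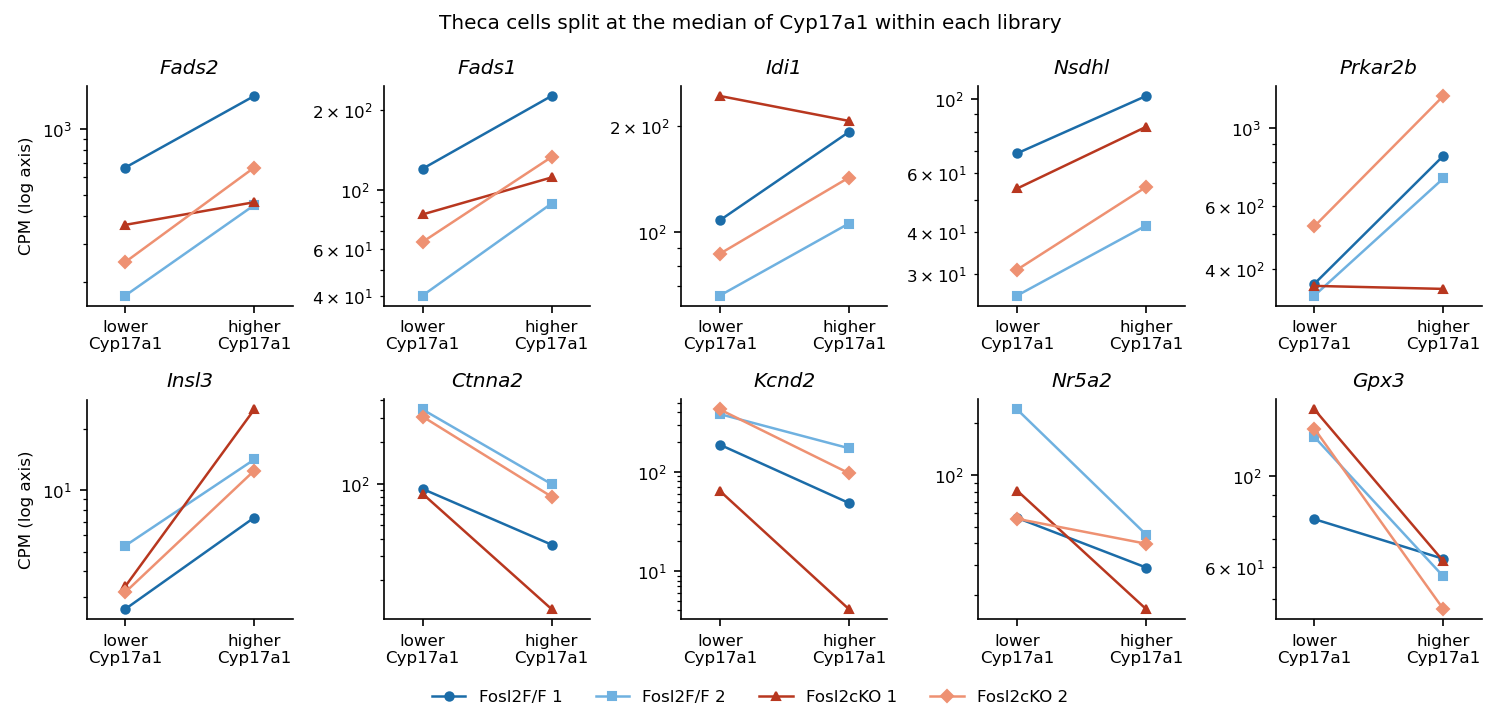
Levels in CPM (log axis) of 10 genes in the theca cells with less and with more Cyp17a1 of each library, joined by a line per library. Fads2, Fads1, Nsdhl and Insl3 are higher with more Cyp17a1 in all 4 libraries, Idi1 and Prkar2b in all but Fosl2cKO 1, and Ctnna2, Kcnd2, Nr5a2 and Gpx3 are lower in all 4.

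Last, the genotypes were compared within theca cells. Of 12419 genes tested, 9 (0.0725%) were higher with the label Fosl2cKO and 0 (0.0%) lower, for an adjusted p below 0.1 and a log2 difference beyond 0.25. The study gives these numbers, without the base of the logarithm, as its filter on gene lists for pathway analysis. Without adjustment, 282 and 151 genes had a p below 0.05, and DESeq2 called 15 higher and 0 lower. The libraries did not overlap for any of the 9. A call on 2 libraries against 2 favours such genes, so this is no further support. Scand1 stood at 19.7 and 28.5 CPM in controls and at 132 and 136 CPM with the label Fosl2cKO (2.41 ± 0.32, adjusted p = 0.020). Ripor2 had 10.1 and 16.6 against 108 and 65.3 CPM (2.58 ± 0.37), Tmem160 had 3.80 and 6.17 against 26.0 and 50 CPM (2.95 ± 0.43), and the circadian factor Dbp had 14.5 and 11.7 against 68.8 and 58.4 CPM (2.18 ± 0.34). Cebpd, a transcription factor of the acute phase response, had 17.2 and 30 against 138 and 87.6 CPM (2.15 ± 0.36, adjusted p = 0.066). Outside the rule for naming genes stood Glrx5 (1.99 ± 0.31), which serves iron-sulphur clusters, Bloc1s4 (2.37 ± 0.42) and the immediate early gene Ier5 (1.98 ± 0.35). All 9 were called again whichever library was left out, but the totals rose, to 61 genes without Fosl2F/F 1, 53 without Fosl2F/F 2, 73 without Fosl2cKO 1 and 120 without Fosl2cKO 2. The genotype left with 1 library was then assumed to vary like the other, and these totals held falls as well as rises. Some alternatives with all libraries called falls too, with 21 higher and 2 lower without doublets and 63 and 33 without a gene filter. With over 2000 UMIs and under 5% mitochondrial UMIs 14 were higher and 0 lower. With at least 3 accompanying genes 6 of the 9 were called, Cebpd, Bloc1s4 and Ier5 being lost (adjusted p = 0.10, 0.17 and 0.16 in edgeR), and the same 3 missed an adjusted p of 0.05 and were lost in the cells with 4 accompanying genes and no condition on Cyp17a1. With at least 5 Cyp17a1 UMIs 8 of the 9 were tested and 7 called. Ier5 missed the threshold (adjusted p = 0.105 in edgeR), and Plb1 was not among the genes tested.

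Plb1, a phospholipase, had the largest fold, from 2 and 1 UMIs in the Fosl2F/F libraries (0.447 and 0.213 CPM) and 45 and 433 UMIs in the libraries labelled Fosl2cKO (83.6 and 75.4 CPM). The ratio per UMI was 233 with an exact counting interval of 79.2 to 1134, and the fitted log2 fold change of 7.71 ± 0.51 (adjusted p = 7.9e-06) rests on these few control counts. A few cells held most of it. In Fosl2cKO 1, 1 of 19 cells carried 44 of the 45 UMIs, and without that cell the level was 2.04 CPM. In Fosl2cKO 2, 1 of 296 cells carried 184 of 433 UMIs, and without it the level was 43.9 CPM. Plb1 was seen in 10.5% and 16.6% of the theca cells of these libraries, against 15.0% and 14.5% of macrophages, and after thinning to 2000 UMIs in 0% and 3.39% against 3.11% and 2.81%. In GCs the level was 959 and 333 CPM. The shares of theca cells with a Plb1 UMI lay near those of macrophages. In the Abcb1b/Hao2 cells of Fosl2cKO 1 and 2 the level was 294 and 421 CPM. There Plb1 was seen in 27.2% and 20.3% of cells, and after thinning in 14.4% and 9.65%. Whether theca cells express Plb1 was not tested. Plb1 lies on chromosome 5 from 32232708 to 32366520, beside Fosl2 (32135801 to 32157842).

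The 9 genes were not particular to theca cells. Scand1, Tmem160, Dbp, Glrx5, Cebpd, Bloc1s4 and Ier5 were higher in both libraries labelled Fosl2cKO than in either Fosl2F/F library in all of the 6 other cell classes examined (Enpep/Asb4 cells, Abcb1b/Hao2 cells, stromal fibroblasts, GCs, macrophages and endothelial cells). Scand1, for example, had 12.6 and 27.7 against 88.7 and 96.6 CPM in GCs and 19.2 and 42.2 against 138 and 177 CPM in macrophages. Ripor2 did so in Enpep/Asb4 and Abcb1b/Hao2 cells but overlapped in the rest, with 1.46 and 3.19 against 0.670 and 2.76 CPM in GCs and 20.2 and 17.5 against 13.4 and 19.4 CPM in macrophages. All these classes came from the same libraries, so they are not separate tests of the genotype. How many of all genes separate the libraries in this way in the other classes was not counted. When the effect of the genotype in theca cells was set against that in Enpep/Asb4 cells, 2 of 13599 genes were called higher (0.0147%) and 0 lower (0.0%), with 173 and 173 at an unadjusted p under 0.05 and 13 and 0 by DESeq2. The 2 were the immune genes Cd86 and Cd74, and none of the 9 was among them.

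**Figure D5:**
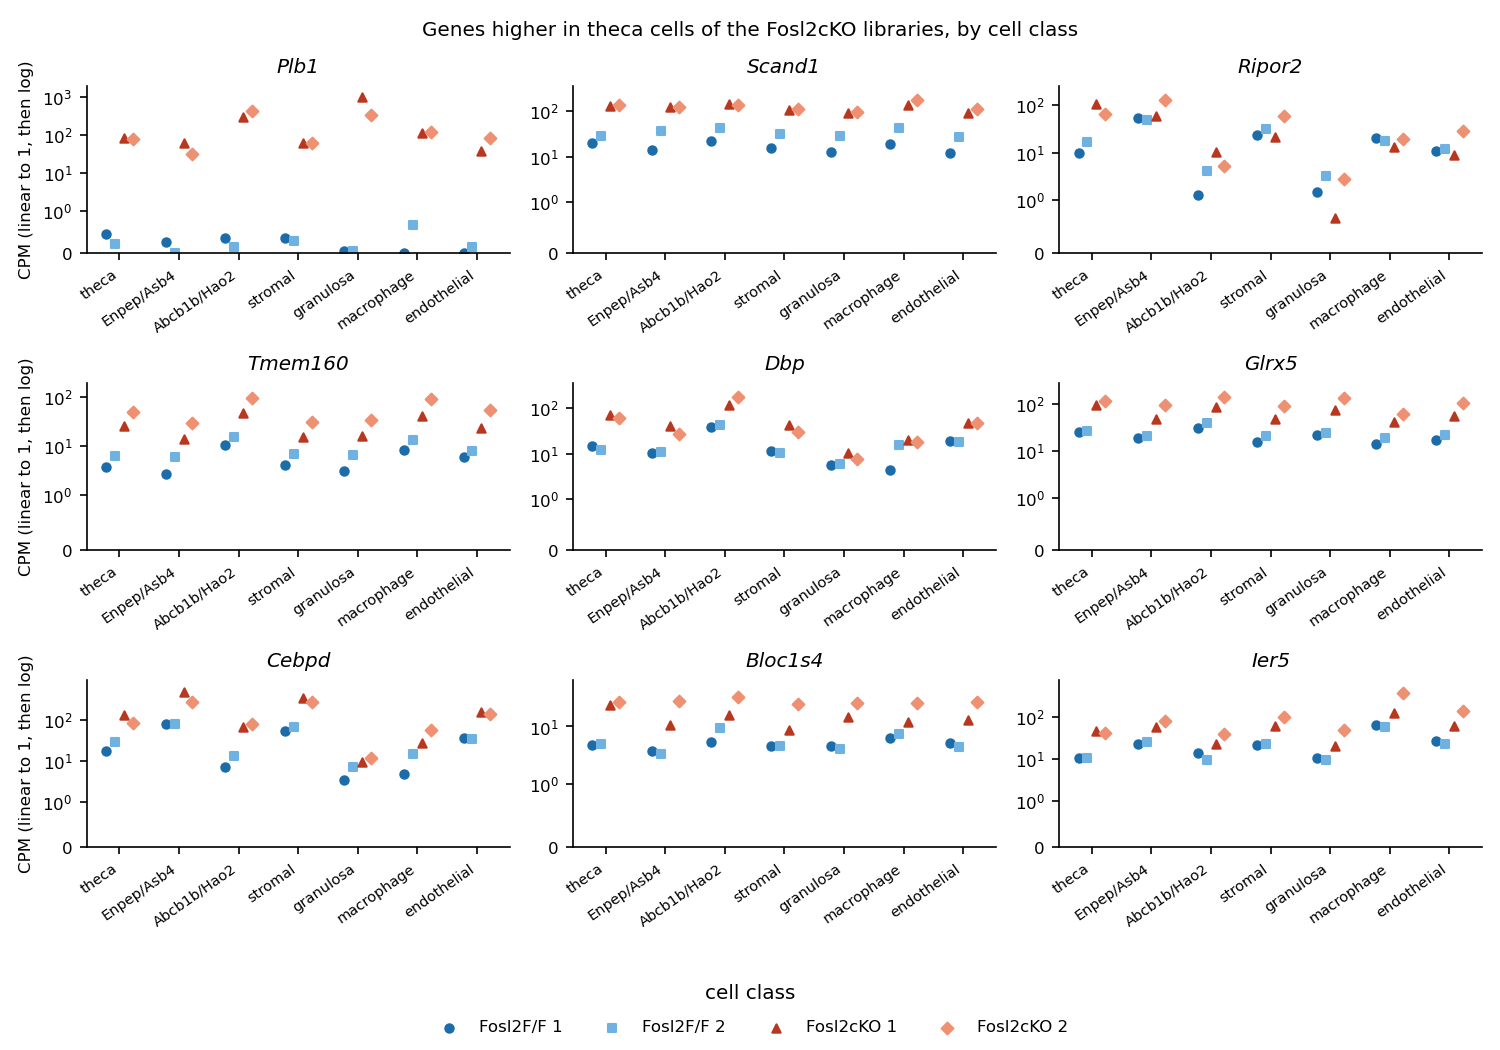
Levels in CPM (linear to 1, then log) of the 9 genes called between the genotypes in theca cells, in theca cells and 6 other cell classes, 1 point per library. In theca cells both libraries labelled Fosl2cKO lie above both Fosl2F/F libraries for all 9, and so they do in the other classes except for Ripor2 in 4 of them.

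None of 21 steroidogenic genes, 29 genes of cholesterol supply, 23 genes of Lhcgr and cyclic AMP signalling, 26 secreted factors and receptors, 13 Hedgehog genes or 9 AP-1 genes was called, and of 23 transcription factors Cebpd alone. Cyp11a1 had a log2 fold change of -0.51 ± 0.43, Hsd3b1 of -0.13 ± 0.38, Star of -0.33 ± 0.51, Lhcgr of -0.77 ± 0.42 and Nr5a1 of 0.03 ± 0.33 (adjusted p = 1.0 for each). At these standard errors, differences of this size could not be told from the spread between libraries. Among 19 genes of the mitochondrial respiratory chain none was called, and all 19 had a negative log2 fold change (median -0.43 against -0.03 over all genes). Without Fosl2F/F 1, 5 of the 19 were positive and the median was -0.04, so the size of the shift depended on that library. Marker lists of other cells moved in both directions, with no gene called. Immune markers had a median of 1.27 with 6 of 6 positive, and their counts in Fosl2cKO 1 came mostly from the single cells given above. Medians were negative for endothelial (-1.26, 0 of 6 positive), GC (-0.85, 1 of 9), luteal (-1.27, 1 of 5), surface epithelial (-2.61, 0 of 4) and oocyte markers (-0.85, 0 of 3). Without Fosl2F/F 2 the endothelial median was -0.25 with 3 of 6 positive and that of oocyte markers turned to 0.68, and without doublets the endothelial one was -0.16. The part of such cells in the differences between the genotypes was not tested. Jund, an AP-1 subunit, stood at 163 and 223 CPM in controls and at 288 and 1068 CPM with the label Fosl2cKO (1.76 ± 0.49, adjusted p = 0.65). Stc1, used by the rule, had 52.3 and 140 against 649 and 197 CPM.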

How the data were processed

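Whole ovaries had been sequenced with the 10x Chromium 3′ kit (version 3). The deposited counts are UMIs per gene and barcode for 32285 genes, made by the authors with Cell Ranger on GRCm38 (mm10) from uniquely mapped reads. The matrix headers name cellranger 7.1.0, and the labels list Seurat 4.1.0. The study's methods name another version of each. CellBender is named in the study's methods, and whether it had acted on these counts could not be told. Coordinates are from GENCODE M21.

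Theca cells and the comparison classes were chosen by rules on counts in each library, and genes that a rule used were left out of the tests between classes. UMIs were summed per class and library and fitted with edgeR 4.0.16 (quasi-likelihood test, TMM, filterByExpr, Benjamini-Hochberg) in R 4.3.3, with the library as a block between classes. DESeq2 1.42.0 was an alternative. Standard errors are the log2 fold change over the root of F. Calls needed an adjusted p below 0.1 with a log2 difference beyond 0.25 between genotypes, 0.05 with 1 between classes, and 0.05 with 0.5 between cells with more and less Cyp17a1. Doublets were scored with scanpy 1.11.5, marked at 0.8% per 1000 barcodes and left out only in an alternative. Scripts were tested on simulated counts.

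Named genes were the 2 to 6 members of a list with the largest called change, the 10 largest rises and falls with a mean of at least 50 CPM in the higher class and 1 direction in all 4 libraries, and between genotypes the 5 largest with at least 20 CPM and no overlap, beside the markers. Gene models without a symbol of their own were not named. The members and lists were chosen with earlier results of these data known. The choice by 4 accompanying genes, its overlap with the other classes and the list counts without doublets or 1 library are later additions, made with the data in view. Alternatives were other cell filters, rule limits, scalings and gene filters, DESeq2, a replicate block and leaving out each library. Some genes that the rule names are not reported here.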

Additional observations from a re-analysis of the deposited data

Results flagged for a closer look

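For 2 genes the effect of the genotype differed between theca cells and Enpep/Asb4 cells in the interaction test of edgeR. Cd86, a costimulatory protein of antigen-presenting cells, had a difference of 8.90 ± 0.64 on the log2 scale (adjusted p = 0.0043), with 0.223, 1.06, 72.5 and 5.05 CPM in theca cells and 4.88, 18.1, 2.5 and 0.15 CPM in Enpep/Asb4 cells in the order Fosl2F/F 1 and 2 and Fosl2cKO 1 and 2. In Fosl2cKO 1, 37 of 39 UMIs of Cd86 came from 1 theca cell, and in Fosl2cKO 2, 25 of 29 did, and without those cells the levels were 4.11 and 0.699 CPM.

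Cd74 had a difference of 4.21 ± 0.42 (adjusted p = 0.030), with 8.27, 33.6, 98.5 and 15.3 CPM in theca cells and 65.3, 145, 19.2 and 6.76 CPM in Enpep/Asb4 cells. Of its UMIs in the theca cells of Fosl2cKO 1, 46 of 53 came from 1 cell, and without it the level was 14.4 CPM. Without Fosl2cKO 1 the differences were 8.97 for Cd86 and 3.63 for Cd74, and neither was called (adjusted p = 0.16 and 0.19).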

How the results depend on the processing

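Against Enpep/Asb4 cells (2447 genes called) and Abcb1b/Hao2 cells (1665), all alternatives gave counts within 1.5 times, 2056 to 2736 and 1305 to 2068. Between genotypes the count of 9 became 23 without doublets, 14 with over 2000 UMIs and under 5% mitochondrial UMIs, 21 with at least 5 Cyp17a1 UMIs, 96 without a gene filter, 15 in DESeq2 and 53 to 120 with 1 library left out. It became 6 with at least 3 accompanying genes, 6 at an adjusted p below 0.05 with no minimum fold, and 7 (6 of the 9) with 4 accompanying genes and no condition on Cyp17a1, where Cebpd, Bloc1s4 and Ier5 were lost in each case. Between cells with more and less Cyp17a1 the count of 393 became 204 without doublets, of which 167 were shared, 207 with the stricter cell filter, 620 without a gene filter, 133 in DESeq2 and 153 to 414 with 1 library left out. The interaction count of 2 became 0 without doublets, 10 with the stricter cell filter, 0 with at least 5 Cyp17a1 UMIs, 4 with at least 3 accompanying genes, 87 without a gene filter, 13 in DESeq2 and 0 to 110 with 1 library left out. The log2 ratio of the shares of theca cells turned from -0.18 to 0.014 with at least 3 accompanying genes and to 0.67 with 4 of them and no condition on Cyp17a1, and ranged from -3.17 to 0.73 with 1 library left out (0.016 without Fosl2F/F 1, 0.73 without Fosl2cKO 1). The cause was not tested.

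With the replicate number as a block, 72 genes were called between the genotypes (45 higher, 27 lower) and the log2 ratio of the shares was -1.21. Deviations of same-numbered libraries had a correlation of -0.0636 over 6935 genes. This is 1 pair of differences, and 1 side of it includes the few theca cells of Fosl2cKO 1. It cannot settle whether the numbers pair the libraries, and no pairing was used. With 2 libraries a group, and 19 theca cells in 1 of them, small differences between the genotypes could not be detected.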
